A study of Mus musculus and Rattus norvegicus with 24 samples.

Results

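Chromatin remodelers and histone modifiers were taken as every listed gene whose symbol begins with Smarc, Arid, Chd followed by a digit, Brd followed by a digit, Kmt2, Setd, Kdm or Hdac. The rule used symbols only and found 69 of the 9595 listed genes: 10 Smarc, 7 Arid, 11 Chd, 7 Brd, 4 Kmt2, 8 Setd, 13 Kdm and 9 Hdac genes. They were measured in 24 single cells of 3 groups. The 8 transplanted cells were mouse embryonic stem cell-derived cardiomyocytes that had been injected into a neonatal rat heart and taken out again after 30 days in vivo. The 8 adult cells were wild-type cardiomyocytes isolated from ventricular tissue of adult rats. The 8 cultured cells were derived from the same mouse line as the transplanted ones and spent the 30 days in vitro. That line carries Isl1-Cre, a Cre recombinase driven by a gene of cardiac progenitors, with Rosa-RFP, a fluorescent reporter that Cre switches on, and aMHC-GFP, a reporter driven by the promoter of the cardiomyocyte myosin gene Myh6. Transplanted and cultured cells share these 3 alleles. The study asked whether a neonatal heart matures stem cell-derived cardiomyocytes, and the adult cells show the mature state.

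DNA in a nucleus is wound on histones, and a gene can be read only where that packing opens. Remodelers use ATP to slide or evict nucleosomes, whereas writers, erasers and readers place, remove and bind methyl and acetyl groups on histone tails. In the heart several of these enzymes are needed for development, and class IIa histone deacetylases hold back hypertrophic growth in the mouse by binding Mef2 transcription factors.

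Each library held 1 cell, and the labels name neither animals nor cultures. Each group therefore counted as 1 sample, and no test between groups was possible. A level (CPM) is the summed count of a group scaled to a total of 1000000, a ratio compares the sums of a pair of groups, and the range in brackets is an exact 95% interval. The counts are amplified reads without molecular identifiers, so intervals cover counting error only. A group without a count was set to a floor of 3 counts over its 8 cells, which is 2.30 CPM in transplanted, 2.36 CPM in adult and 14.6 CPM in cultured cells, and its ratio is then a bound. For printed ratios, the brackets also hold the value without any 1 cell that shifts the ratio more than 1.5-fold or turns it into or out of a bound; beside a bound, that value is again a bound. Depth was 88796 to 344224 counts in transplanted cells, 108546 to 223744 in adult cells and 16099 to 60789 in cultured cells. Rat reads were counted on the mouse build like the others, whose effect on the adult levels was not tested, and species and group cannot be told apart.

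The labelled cell type was checked against 17 cardiomyocyte markers. They took 19.0 to 24.9% of counts in transplanted cells, 19.8 to 24.6% in adult cells and 0.00837 to 17.6% in cultured cells. Cultured cells F, G and H held only 0.779%, 0.0883% and 0.00837%, which goes against their label, so counts over cultured cells are also given without them. In the cultured sum Ttn alone held 9301 of the 11307 marker counts. Of the 17 markers, 11 were at least 2-fold higher and 6 lower in transplanted than in cultured cells, and 11 higher and 5 lower in adult cells. Mybpc3 had 0 cultured counts, and Myl2, Tnni3, Tnnc1 and Mb were each counted in 1 cultured cell. The noncoding RNA Rpph1 took 2.51 to 5.48% of counts in cultured cells B, C, D and E, at most 0.0574% in the other cultured cells, at most 0.00179% in adult cells, and was at 0 in transplanted cells. Fibroblast markers took 0.0000768% of transplanted, 0.0000786% of adult and 0.0844% of cultured counts, with Col3a1, Dcn and Postn at 0 throughout. Endothelial markers had 1 count in all, smooth muscle and pericyte markers took at most 0.0302% of any cell, and macrophage and leukocyte markers at most 0.0483%. Pluripotency markers took 0.0163% of transplanted, 0.185% of adult and 0.0262% of cultured counts, with Sox2 holding 212 transplanted, 2319 adult and 26 cultured counts. Proliferation markers took 0.00192% of transplanted, 0% of adult and 0.116% of cultured counts. The part of these differences in the results below was not tested.

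The members together were rare in transplanted and adult cells and far more abundant in cultured cells. They took 0.0249% of transplanted counts (0.0223 to 0.0278, 325 counts), 0.0242% of adult counts (0.0216 to 0.0271, 308 counts) and 0.769% of cultured counts (0.732 to 0.808, 1586 counts). Single transplanted cells ranged from 0 to 0.197% with a median of 0.0104%, adult cells from 0.000714 to 0.0431% with a median of 0.0275%, and cultured cells from 0.216 to 1.37% with a median of 0.582%. The lowest cultured cell was thus above the highest transplanted and the highest adult cell, while transplanted and adult cells overlapped. The margin over transplanted cell G, at 0.197% (0.170 to 0.226), was within counting error for cultured G and F. Those held 0.216% (0.160 to 0.286) and 0.233% (0.168 to 0.313), and both went against their label. Transplanted cell G held 60.6% of its group's member counts, and without it the transplanted share was 0.0106%. Cultured cell B held 52.5%, and without it the cultured share was 0.519%. Without cultured cells F, G and H the cultured share was 0.920% (0.871 to 0.971), and without the Rpph1-rich cells B, C, D and E it was 0.443% (0.400 to 0.490).

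**Figure D1:**
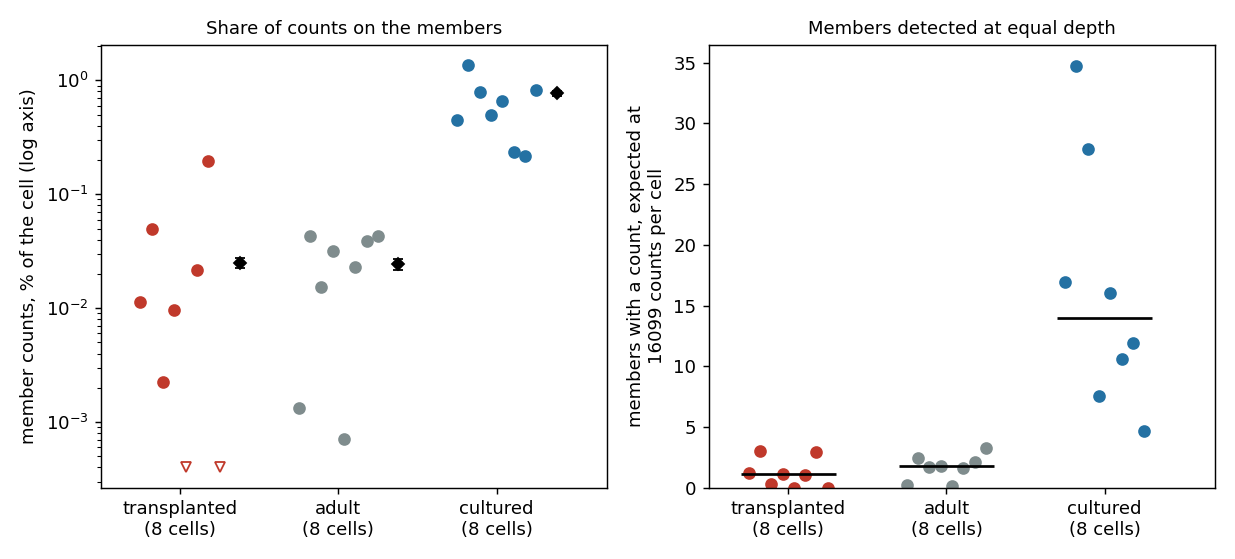
Left, share of each cell's counts that fell on the 69 members, in percent on a log axis, for 8 transplanted, 8 adult and 8 cultured cells (circles; open triangles are cells at 0, drawn at the bottom of the axis). Black diamonds are the group sums with exact 95% intervals. Right, members with a count expected when each cell is thinned to 16099 counts, with the group median as a bar. All cultured cells lie above all transplanted and adult cells in both panels. On the left, cultured G and F lie above transplanted G by a margin within counting error.

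More members were also detected in cultured cells, although these were sequenced less deeply. A count was found for 13 of 69 members in transplanted cells, 22 in adult cells and 62 in cultured cells, and Smarca2 and Hdac10 had none in any cell. Of all 9595 listed genes, 3129 had a count in transplanted, 3651 in adult and 7310 in cultured cells. The higher number in cultured cells was thus also seen for listed genes in general. One transplanted cell held 0 to 5 members, one adult cell 1 to 7 and one cultured cell 5 to 41. Thinned to 16099 counts, the depth of the shallowest cell, the median number expected per cell was 1.10 in transplanted cells, 1.76 in adult cells and 13.9 in cultured cells. The ranges were 0 to 3.02 in transplanted, 0.115 to 3.30 in adult and 4.67 to 34.8 in cultured cells. Cultured cells had more genes detected in general at that depth, so the members were also taken as a share of the genes detected: a median of 0.164% in transplanted, 0.247% in adult and 0.939% in cultured cells. The highest transplanted and adult cells, at 0.348% and 0.443%, stayed below the lowest cultured cell at 0.637%.

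Detection was patchy from cell to cell. Of the members with a count, 9 of 13 (69.2%) were seen in a single transplanted cell, 18 of 22 (81.8%) in a single adult cell and 17 of 62 (27.4%) in a single cultured cell. For all genes these shares were 57.7% in transplanted, 53.2% in adult and 53.1% in cultured cells. Members seen in at least 4 of the 8 cells numbered 0 in transplanted, 1 in adult and 7 in cultured cells, or 0%, 4.55% and 11.3% of those with a count. For all genes these shares were 16.6%, 17.5% and 10.2%, so the cultured share of the members was near that of all genes. The adult one was Chd4. The leading members were different genes in each group. Hdac2 and Smarce1 made up 58.5% and 9.85% of transplanted member counts. Hdac5, Brd7 and Chd2 made up 14.9%, 14.6% and 13.0% of adult ones. Kmt2e, Kdm5a and Chd6 made up 11.2%, 5.67% and 5.36% of cultured ones.

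**Figure D2:**
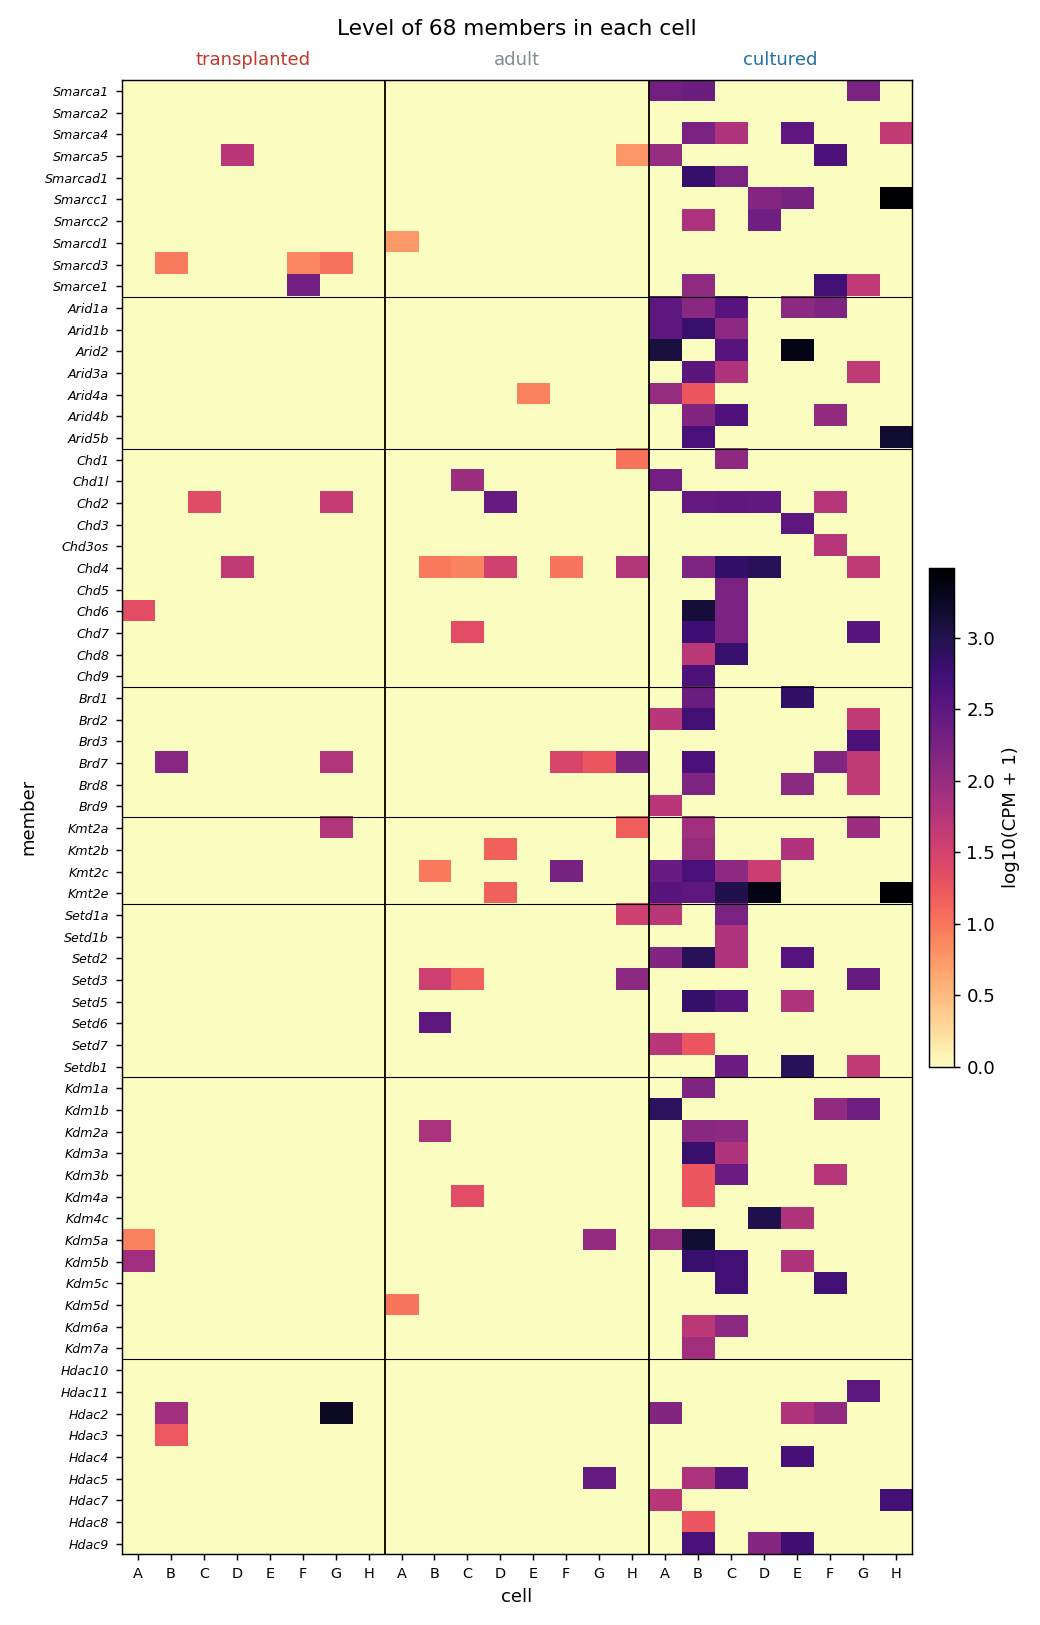
Level of 68 of the 69 members (rows, grouped by prefix) in each of the 24 cells (columns, transplanted on the left, adult in the middle, cultured on the right), as log10(CPM + 1) by colour. Most transplanted and adult entries are 0, and cultured cell B has a count for 40 of the members drawn.

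Against cultured cells, nearly every member that could be compared was lower. In transplanted cells 43 members had at least 10 counts over the pair of groups: 41 were at least 2-fold lower, Hdac2 was higher and 1 lay between. Of all 4958 genes with that many counts, 64.0% were at least 2-fold lower and 22.5% at least 2-fold higher. The median log2 ratio, with 1 CPM added, was -6.75 for the members and -5.63 for all genes. In adult cells 46 members passed: 42 were lower, 0 higher, and Chd1l, Setd3, Setd6 and Hdac5 lay between. The background was 62.1% lower and 23.0% higher of 5132 genes, with medians of -6.46 for the members and -3.85 for all genes. Both comparisons share the cultured cells, and a member that passed through its cultured counts alone had to differ: 10 cultured counts against none are already at least 21.1-fold lower in transplanted and 20.6-fold lower in adult cells. This was so for 32 of the 43 members, which had no transplanted count, and for 30 of the 46, which had no adult count. In the other direction, 38 counts against none in cultured cells were needed for 2-fold. The remaining 26 members in the transplanted and 23 in the adult comparison had fewer counts and could not be placed.

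Single cells weighed heavily on these counts. Without cultured cell B, 21 of 24 members (87.5%, against 59.4% of all genes) were lower in transplanted cells and 25 of 30 (83.3%, against 57.3%) in adult cells. Without transplanted cell G no member was higher in transplanted cells, and without any 1 adult cell other than B, 1 member, Setd6, passed as higher in adult cells. Of the 41 members lower in transplanted cells, 11 were still called lower whichever cell was left out (26.8%, against 32.8% of all genes called lower): Arid1a, Arid2, Arid5b, Brd1, Chd2, Chd4, Chd7, Hdac9, Kdm5b, Kmt2e and Setd2. In adult cells 13 of 42 were (31.0%, against 32.4%), the same 11 with Kdm2a and Kmt2c. Of the same 11, only Chd2, Chd4 and Kdm5b had a transplanted count. For the rest, the call shows only that enough cultured counts to pass were left without any 1 cell. The same holds in adult cells for Arid1a, Arid2, Arid5b, Brd1, Hdac9, Kdm5b and Setd2, which had no adult count. Without cultured cells F, G and H, 38 of 39 members were lower in transplanted cells (97.4%, against 57.8% of all genes) and 36 of 39 in adult cells (92.3%, against 56.0%). Without cultured cells B, C, D and E only 14 members passed in transplanted cells, of which 12 were lower (85.7%, against 55.4%), and 20 in adult cells, of which 14 were lower (70.0%, against 54.2%).

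**Figure D3:**
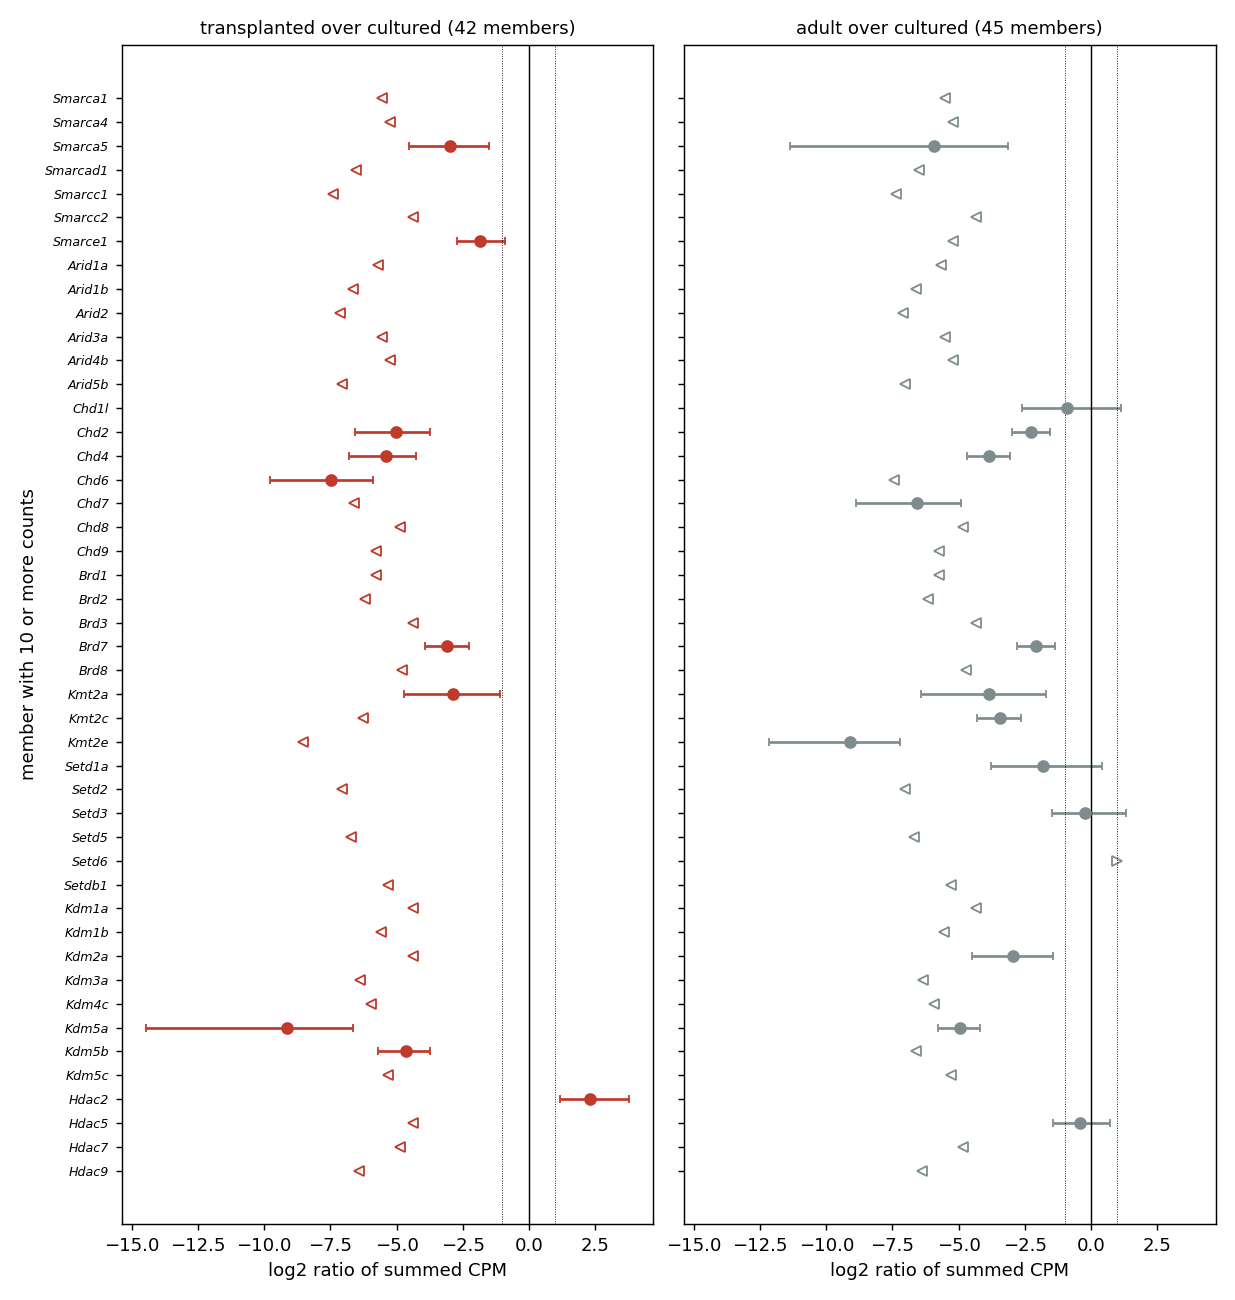
Log2 ratio of summed CPM of the members drawn that had at least 10 counts, transplanted over cultured on the left (42 members) and adult over cultured on the right (45 members). Circles carry exact 95% intervals, open triangles pointing left are upper bounds where the first group had no count, the one pointing right is a lower bound where cultured cells had none, and dotted lines mark 2-fold. Hdac2 is the one member to the right of 2-fold in transplanted cells.

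Between transplanted and adult cells, members lay in both directions. Only 13 members had 10 counts over both groups: 4 were at least 2-fold higher in transplanted cells, Smarce1, Kdm5b and Hdac2 among them, and Chd1l, Chd2, Chd4, Brd7, Kmt2c, Setd3, Setd6, Kdm5a and Hdac5 were lower. Among all 3501 genes 34.8% were higher and 44.3% lower, with a median log2 ratio of -0.37 against -2.53 for the members. Leaving out 1 cell gave 3 to 5 members higher and 6 to 9 lower. Hdac2 alone of the 13 kept its call whichever cell was left out, with no adult count to set against its transplanted ones. That is 1 of the 4 higher and 0 of the 9 lower members, against 16.3% of all genes called higher and 21.7% of those called lower.

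Members are long genes, and ratios over cultured cells moved with length. The summed exon length of a member had a median of 8404 bp (1903 to 23148), against 4570.5 bp for all listed genes, and 61 of 69 were longer than that. Cultured counts themselves sat on longer genes. With Ttn and genes without an exon length left out, the count-weighted median exon length was 3738 to 6983 bp per cultured cell. It was 1950 to 2284 bp in transplanted and 2044 to 2352 bp in adult cells. Of all genes of 2800 bp or shorter, 36.5% were at least 2-fold lower in transplanted than in cultured cells, and of those of 7252 bp or longer 82.7% were. In that longest class 29 of 30 members were lower in transplanted cells, and in the class of 4571 to 7251 bp 12 of 12 were, against 73.8% of all genes. In adult cells the longest class had 29 of 30 members lower, against 81.7% of all genes, and the next class 13 of 14, against 71.0%. The part of gene length in the members' ratios was not tested.

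**Figure D4:**
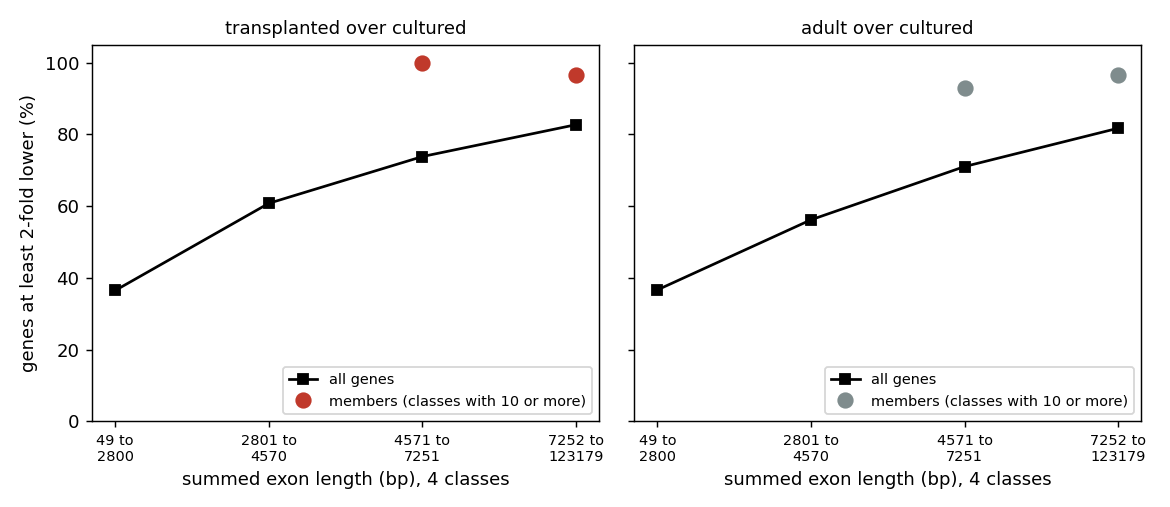
Percentage of genes at least 2-fold lower than in cultured cells, by class of summed exon length in bp, for transplanted (left) and adult cells (right). Black squares are all genes with at least 10 counts, and coloured circles are the members in the 2 classes that hold 10 or more of them. The black line climbs with length, to 82.7% in transplanted and 81.7% in adult cells.

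Promoters are shown to give the sequence at the gene starts of well counted members. RefSeq entries on GRCm38.p6, from 250 bases before to 50 after the gene start, were found for 50 members, with 66 promoters. Their median GC content was 65.7% and their ratio of observed to expected CpG 0.871, against 52.7% and 0.384 for all 32851 RefSeq promoters. Those belong to 27025 genes and so go beyond the 9595 genes listed in the series. A comparison with the listed genes alone was not made. The GC box, searched as GGGCGG on either strand, was in 66.7% of the members' promoters and 35.7% of all. The CCAAT box was in 27.3% against 37.4%, and TATAAA in 6.06% against 13.6%, each on either strand. A match is a description of letters and not a bound site. The promoters below belong to Hdac2, Hdac5 and Chd6, the members with an entry that had most counts in transplanted, adult and cultured cells. Capitals mark the GC box. They lie at chr10:36974294-36974593 on the plus strand, chr11:102230123-102230422 on the minus strand and chr2:161109037-161109336 on the minus strand.
Hdac2: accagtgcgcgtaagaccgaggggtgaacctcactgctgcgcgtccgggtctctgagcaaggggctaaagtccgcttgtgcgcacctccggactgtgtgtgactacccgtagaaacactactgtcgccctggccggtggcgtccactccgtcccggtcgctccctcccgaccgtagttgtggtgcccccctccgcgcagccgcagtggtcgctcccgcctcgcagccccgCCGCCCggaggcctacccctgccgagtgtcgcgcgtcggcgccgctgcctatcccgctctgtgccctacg
Hdac5: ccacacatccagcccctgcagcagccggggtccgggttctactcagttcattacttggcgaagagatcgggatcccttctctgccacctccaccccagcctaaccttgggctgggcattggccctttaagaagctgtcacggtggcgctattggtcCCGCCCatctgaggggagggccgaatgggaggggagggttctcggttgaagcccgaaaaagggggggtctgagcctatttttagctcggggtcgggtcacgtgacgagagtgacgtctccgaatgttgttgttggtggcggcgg
Chd6: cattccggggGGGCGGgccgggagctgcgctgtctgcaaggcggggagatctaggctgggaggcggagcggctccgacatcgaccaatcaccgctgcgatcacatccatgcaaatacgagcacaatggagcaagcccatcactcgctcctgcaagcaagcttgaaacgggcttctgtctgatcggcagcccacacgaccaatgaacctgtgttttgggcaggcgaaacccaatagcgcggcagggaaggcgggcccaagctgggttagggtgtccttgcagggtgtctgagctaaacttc
Each holds 1 GC box, at GC contents of 69.7% for Hdac2, 60.7% for Hdac5 and 61.0% for Chd6, and the adult counts of Hdac5 came from rat cells, whose own promoter is not shown.

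SWI/SNF subunits and their relatives had few counts outside cultured cells. The 10 Smarc genes summed to 33.0 CPM in transplanted (23.9 to 44.5), 1.57 in adult (0.190 to 5.68) and 985 in cultured cells (854 to 1130). That was 29.8-fold lower in transplanted cells (21.4 to 42.5; 113 without transplanted F) and 626-fold lower in adult cells (171 to 5204; 1032 without adult A and 1044 without adult H). All 7 Smarc members with enough counts were lower in both, against 64.0% of all genes in transplanted and 62.1% in adult cells. Of these, Smarca1, Smarca4, Smarcad1, Smarcc1 and Smarcc2 had no transplanted or adult count and passed through their cultured counts alone. Smarca4, the Brg1 ATPase that drives the complex, had 0 counts in transplanted and adult cells and 11, 1, 5 and 1 counts in cultured cells B, C, E and H, or 87.3 CPM. It was at least 37.9-fold lower in transplanted cells (20.9 without cultured B) and at least 37.0-fold lower in adult cells (20.4 without cultured B). Smarca2, the alternative ATPase, had no count anywhere.

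Smarcc1, a core scaffold subunit, was seen in cultured cells only, with 4, 3 and 74 counts in D, E and H (393 CPM). It was at least 171-fold lower in transplanted cells (16.7 without cultured H) and at least 167-fold lower in adult cells (16.3 without cultured H). Smarcd3, the subunit Baf60c that mouse heart development requires, had 1 count each in transplanted cells B, F and G and 0 in adult and cultured cells. These 3 counts are at the floor and below what cultured depth could show, so neither a ratio nor a direction is given. Smarce1, a DNA-binding subunit on chromosome 11 at 99209047 to 99231017, had 32 counts in transplanted cell F, 0 in adult cells and 7, 10 and 1 in cultured cells B, F and G. It was 3.55-fold lower in transplanted than in cultured cells (1.88 to 6.53), at least 33.5-fold lower without transplanted F and 1.74-fold lower without cultured F. The imitation switch ATPase Smarca1 and the helicase Smarcad1 had 22 and 44 cultured counts, 14 and 41 of them in cell B, and none elsewhere.

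Arid proteins share a DNA-binding domain, and Arid1a, Arid1b and Arid2 are subunits of the same complexes. The 7 genes had 0 counts in transplanted cells, 1 count in adult cells (0.786 CPM) and 245 counts in cultured cells (1188 CPM, 1044 to 1347). They were at least 516-fold lower in transplanted cells and 1511-fold lower in adult cells (269 to 59920), or at least 448-fold lower without adult E. Arid1a, the defining subunit of the canonical complex, had 6, 8, 6, 2 and 3 counts in cultured cells A, B, C, E and F. It was spread over more cells than most members, and at 121 CPM it was at least 52.7-fold lower in transplanted and at least 51.4-fold lower in adult cells, with neither bound moved over 1.5 times by any cell. Its alternative Arid1b had 6, 39 and 2 counts in cultured cells A, B and C, and was at least 99.0-fold lower in transplanted cells (23.9 without cultured B) and at least 96.6-fold lower in adult cells (23.3 without cultured B). Arid2, of the polybromo form, had 24, 6 and 36 counts in cultured cells A, C and E (320 CPM), at least 139-fold lower in transplanted cells (68.5 without cultured E) and at least 136-fold lower in adult cells (66.9 without cultured E). Arid5b, a partner of a histone demethylase, had 29 and 35 counts in cultured cells B and H, and was at least 135-fold lower in transplanted (69.1 without cultured H) and at least 132-fold lower in adult cells (67.4 without cultured H).

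**Figure D5:**
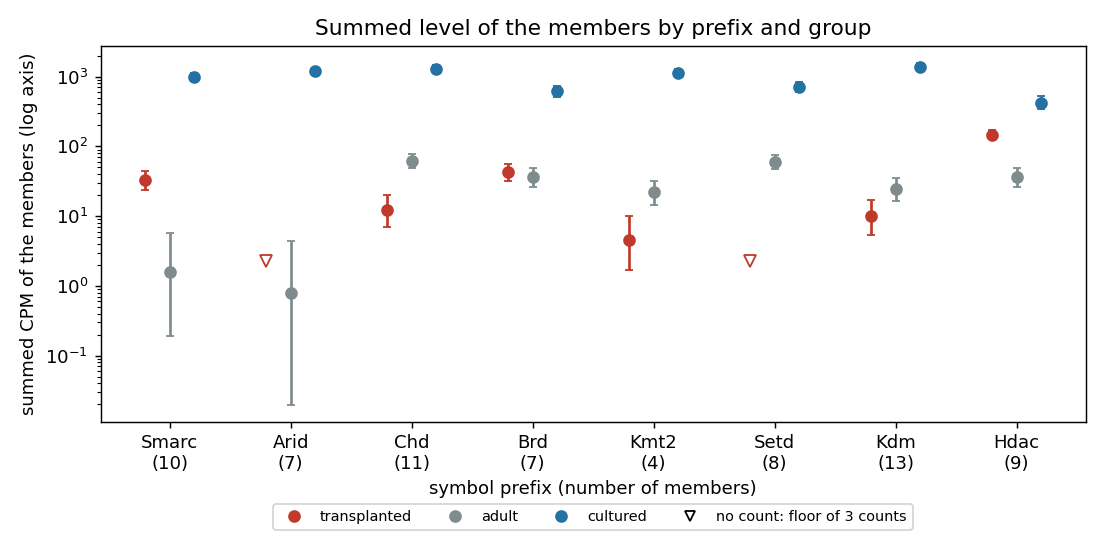
Summed CPM (log axis) of the members of each of the 8 prefixes in transplanted, adult and cultured cells, with exact 95% Poisson intervals. Open triangles stand at the floor of 3 counts where a group had none. Cultured cells are highest for all 8 prefixes, and the gap is smallest for Hdac in transplanted cells, at 147 against 422 CPM, or 2.86-fold; without transplanted G, which held 180 of the 192 transplanted Hdac counts, it was 42.3-fold.

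Chd genes were counted in 4 transplanted, 5 adult and 7 cultured cells. Chd3os was included by its symbol alone and is not taken as a remodeler. It lies beside Chd3 on the opposite strand and had 1 count, in cultured cell F. The 11 Chd genes, Chd3os included, summed to 12.3 CPM in transplanted (7.02 to 19.9), 61.3 in adult (48.5 to 76.6) and 1280 in cultured cells (1131 to 1445). The sum was 104-fold lower in transplanted cells (63.0 to 185; 163 without transplanted D, 51.0 without cultured B) and 20.9-fold lower in adult cells (16.2 to 27.2; 43.4 without adult D, 10.2 without cultured B). Chd4, the ATPase of the NuRD deacetylase complex, lies on chromosome 6 at 125095981 to 125130591. It had 7 counts in transplanted cell D, 1, 1, 5, 1 and 12 counts in adult cells B, C, D, F and H, and 10, 12, 24 and 1 in cultured cells B, C, D and G. Levels were 5.37, 15.7 and 228 CPM in transplanted, adult and cultured cells. Chd4 was 42.4-fold lower in transplanted cells (19.1 to 111; at least 87.1 without transplanted D, 24.01 without cultured D) and 14.5-fold lower in adult cells (8.42 to 25.8; 30.2 without adult H, 8.20 without cultured D). Between transplanted and adult cells it was 2.93-fold lower in transplanted ones (1.19 to 8.19), but 1.40-fold without adult H and at least 6.01-fold without transplanted D.

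Chd2, a remodeler linked to epilepsy in humans, had 2 and 4 counts in transplanted cells C and G, 40 in adult cell D, and 17, 5, 8 and 1 in cultured cells B, C, D and F. It was 32.6-fold lower in transplanted than in cultured cells (13.4 to 95.7; 20.9 without cultured B, 90.4 without transplanted G). In adult cells it was 4.78-fold lower (2.89 to 7.83), but at least 56.0-fold without adult D and 3.06-fold without cultured B. Set against adult cells it was 6.83-fold lower in transplanted ones (2.88 to 19.7; 18.9 without transplanted G). Without adult D there was no adult count and the ratio turned, to at least 1.72-fold higher in transplanted cells. Chd7, mutated in CHARGE syndrome, had 0 transplanted counts, 3 in adult cell C and 35, 3 and 8 in cultured cells B, C and G. It was at least 96.9-fold lower in transplanted cells (32.9 without cultured B) and 94.6-fold lower in adult cells (30.4 to 475; at least 83.8 without adult C, 32.1 without cultured B). Chd6 rested on 1 cell, with 82 of its 85 cultured counts in cell B, 3 counts in transplanted cell A and 0 in adult cells. Chd1l, a remodeler recruited by poly(ADP-ribose), had 13 counts in adult cell C, 0 in transplanted cells and 4 in cultured cell A. Its adult level was 1.90-fold lower than the cultured one, an interval that includes no difference (0.451 to 6.14), at least 7.29-fold lower without adult C, and without cultured A it had no cultured count.

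Bromodomain proteins read acetylated histones. The 7 Brd genes summed to 42.2 CPM in transplanted (31.8 to 54.9), 36.2 in adult (26.5 to 48.3) and 611 in cultured cells (509 to 728). The sum was 14.5-fold lower in transplanted cells (10.5 to 20.3; 120 without transplanted B, 5.21 without cultured B) and 16.9-fold lower in adult cells (12.0 to 24.2; 92.6 without adult H, 6.08 without cultured B). Brd7, which reads for the polybromo complex, was counted in all 3 groups. It had 17 and 6 counts in transplanted cells B and G, 3, 3 and 39 in adult cells F, G and H, and 27, 3 and 1 in cultured cells B, F and G. Its level was 17.7 CPM in transplanted cells, 35.4 in adult and 150 in cultured cells. The transplanted level was 8.52-fold lower than the cultured one (4.81 to 15.3; 29.5 without transplanted B, 1.56 without cultured B). The adult level was 4.25-fold lower (2.60 to 6.86; 26.6 without adult H) and turned to 1.29-fold higher without cultured B.

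The BET proteins Brd2 and Brd3, which bind acetylated chromatin at active genes, were seen in cultured cells only: Brd2 had 1, 33 and 1 counts in A, B and G, and Brd3 had 10 in G. Brd1, the scaffold of an acetyltransferase complex, had 14 and 12 counts in cultured cells B and E and none in the other groups, at least 54.8-fold lower in transplanted (35.8 without cultured B, 32.0 without cultured E) and at least 53.4-fold lower in adult cells (35.0 without cultured B, 31.2 without cultured E).

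Kmt2 proteins belong to the family that methylates H3K4 at promoters and enhancers. Their 4 genes summed to 4.61 CPM in transplanted (1.69 to 10.02), 22.0 in adult (14.6 to 31.8) and 1111 in cultured cells (971 to 1264). The sum was 241-fold lower in transplanted (109 to 664; at least 445 without transplanted G) and 50.4-fold lower in adult cells (34.0 to 77.6; 161 without adult F). Kmt2e, a divergent family member, was the leading member of cultured cells, with 7, 19, 17, 63, 0, 0, 0 and 72 counts in cells A to H. It had 0 counts in transplanted cells and 2 in adult cell D. At 863 CPM in cultured cells, or 82.7 CPM per kb of exon, it was also the highest member per length. It was at least 375-fold lower in transplanted cells, a bound that no single cell moved over 1.5 times, and 549-fold lower in adult cells (150 to 4567; at least 322 without adult D).

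Kmt2c, which marks enhancers with its paralog, had 0 transplanted counts, 1 and 20 counts in adult cells B and F, and 5, 29, 2 and 1 in cultured cells A to D. It was at least 77.9-fold lower in transplanted cells (23.9 without cultured B) and 10.9-fold lower in adult cells (6.20 to 19.5; 209 without adult F, 3.33 without cultured B). Kmt2a, a founding member recruited by menin, had 6 counts in transplanted cell G, 3 in adult cell H, and 5 and 2 in cultured cells B and G. It was 7.37-fold lower in transplanted cells (2.12 to 26.6; at least 13.6 without transplanted G, 2.99 without cultured B). Kmt2b had 2 counts in adult cell D and 7 in cultured cells.

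Setd genes were counted in adult but not in transplanted cells. The 8 genes had 0 counts in transplanted cells, 76 in adult cells (59.8 CPM, 47.1 to 74.8) and 145 in cultured cells (703 CPM, 593 to 828). They were at least 305-fold lower in transplanted than in cultured cells (143 without cultured B) and 11.8-fold lower in adult cells (8.85 to 15.7; 23.2 without adult B, 5.52 without cultured B). Against adult cells they were at least 26.0-fold lower in transplanted cells (13.2 without adult B). Setd3, which methylates a histidine of actin, had 4, 2 and 26 counts in adult cells B, C and H and 6 in cultured cell G. Adult and cultured levels of 25.2 and 29.1 CPM differed by 1.16-fold, within counting error (0.395 to 2.80), although the adult level was 5.14-fold lower without adult H and, with no count left in cultured cells without G, at least 1.54-fold higher. Setd6, which methylates the NF-kappaB subunit RelA, had 37 counts in adult cell B and none in the other 23 cells. It is the shortest member, at 1903 bp of exon. Its level of 29.1 CPM in adult cells lay at the edge of what cultured depth could show as 2-fold.

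Setd2, Setd5 and Setdb1 were counted in cultured cells only. Setd2, the enzyme for H3K36 trimethylation in transcribed genes, had 0 counts in transplanted and adult cells and 3, 53, 1 and 6 in cultured cells A, B, C and E (306 CPM). It was at least 133-fold lower in transplanted (29.9 without cultured B) and at least 130-fold lower in adult cells (29.2 without cultured B). Setdb1, an H3K9 methyltransferase, had 4, 14 and 1 counts in cultured cells C, E and G, and Setd5 had 43, 6 and 1 in B, C and E, with none elsewhere. Setd1a, a core H3K4 methyltransferase, had 7 counts in adult cell H and 4 in cultured cells. Its adult level was 3.52-fold lower with an interval that includes no difference (0.757 to 13.9). It was at least 6.86-fold lower without adult H, and it turned to 1.04-fold higher without cultured C.

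Kdm demethylases, which erase methyl marks, were counted in 1 transplanted, 4 adult and 7 cultured cells. The 13 genes summed to 9.98 CPM in transplanted (5.31 to 17.1), 24.4 in adult (16.6 to 34.6) and 1392 in cultured cells (1236 to 1563). The sum was 140-fold lower in transplanted cells (80.3 to 265; at least 539 without transplanted A, 64.8 without cultured B) and 57.1-fold lower in adult cells (39.3 to 85.6; 118 without adult G, 26.5 without cultured B). Kdm5a and Kdm5b, which both remove methyl groups from H3K4, supplied the transplanted counts, in cell A only. Kdm5b had 12 counts there, 0 in adult cells and 38, 9 and 1 in cultured cells B, C and E. It was 25.3-fold lower in transplanted than in cultured cells (13.2 to 52.3; at least 90.1 without transplanted A, 7.47 without cultured B) and at least 98.7-fold lower in adult cells (29.2 without cultured B).

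Kdm5a had 1 count in transplanted cell A, 18 in adult cell G, and 2 and 88 in cultured cells A and B. The fold of 569 in transplanted cells (99.5 to 22710; at least 169 without transplanted A) could not be given without cultured B, where 2 counts were left. In adult cells it was 30.8-fold lower (18.4 to 54.4; at least 160 without adult G) and turned to 1.03-fold higher without cultured B. Kdm2a, an H3K36 demethylase, had 8 counts in adult cell B, 8 and 2 in cultured cells B and C and 0 in transplanted cells. It was 7.71-fold lower in adult cells (2.74 to 22.5; at least 18.6 without adult B, 2.19 without cultured B). Kdm3a had 39 of its 40 counts in cultured cell B and Kdm4c 29 of its 30 in cultured cell D, and both act on H3K9. Kdm1a, the first histone demethylase described, had 10 counts in cultured cell B only, and Kdm6a, which acts on H3K27, had 5 in cultured cells B and C.

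Histone deacetylases gave the single member that was higher in transplanted cells. The 9 Hdac genes summed to 147 CPM in transplanted (127 to 170), 36.2 in adult (26.5 to 48.3) and 422 in cultured cells (338 to 520). The sum was 2.86-fold lower in transplanted cells (2.20 to 3.71; 42.3 without transplanted G) and 11.7-fold lower in adult cells (8.07 to 17.1; at least 155 without adult G). Hdac2, a nuclear class I enzyme of several corepressor complexes, lies on chromosome 10 at 36974544 to 37001889. It had 10 and 180 counts in transplanted cells B and G, 0 in adult cells and 3, 1 and 2 in cultured cells A, E and F. The transplanted level of 146 CPM was 5.01-fold higher than the cultured 29.1 CPM (2.26 to 13.8; 9.06 without cultured A). It turned to 3.50-fold lower without transplanted G. Against adult cells it was at least 61.8-fold higher in transplanted ones, or at least 3.52-fold without transplanted G. Hdac3, the catalytic subunit of the separate NCoR complex, had 2 counts in transplanted cell B and none elsewhere, which is under the floor.

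Class IIa deacetylases had no count in transplanted cells. For each, the exact interval of the transplanted level reached up to 2.83 CPM, which covers counting error only. Hdac5 had 46 counts in adult cell G and 4 and 6 counts in cultured cells B and C. The adult level of 36.2 CPM was 1.34-fold lower than the cultured 48.5 CPM, and the interval includes no difference (0.603 to 2.69); without adult G it was at least 17.8-fold lower, and without cultured C 1.71-fold higher. In transplanted cells it was at least 21.1-fold lower than in cultured ones (9.16 without cultured C). Hdac9 had 28, 4 and 9 counts in cultured cells B, D and E, and was at least 86.4-fold lower in transplanted (38.8 without cultured B) and at least 84.3-fold lower in adult cells (37.9 without cultured B). Hdac4 had 8 counts in cultured cell E, and Hdac7 had 1 and 13 in A and H. Mef2a and Mef2c, which these enzymes bind, had 1 and 0 counts in transplanted cells, 187 and 103 in adult cells and 93 and 103 in cultured cells. Scaled to depth, both were lower in adult than in cultured cells, at 147 against 451 CPM for Mef2a and 81.0 against 500 CPM for Mef2c. Without adult A only 1 adult count of Mef2a was left, and without adult F only 1 of Mef2c. Without cultured F the adult level of Mef2a was 1.74-fold lower, and without cultured H that of Mef2c was 1.42-fold lower, both within 2-fold. Cultured F and H are among the cells whose marker share went against their label.

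Other chromatin genes were examined the same way. From 7 lists of chromatin genes outside the 8 prefixes, 121 were listed. They took 0.110% of transplanted counts (0.105 to 0.116), 0.106% of adult counts (0.101 to 0.112) and 1.60% of cultured counts (1.54 to 1.65). Of 68 with enough counts, 59 were lower and 4 higher in transplanted than in cultured cells, against 64.0% lower and 22.5% higher of all genes. Their median log2 ratio was -6.29, against -5.63 for all genes. In adult cells 61 of 70 were lower and 4 higher, against 62.1% and 23.0% of all genes, with a median of -5.94 against -3.85. As for the members, a gene that passed through its cultured counts alone had to be lower. The genes named next, the Mef2 pair above and Hdac10 were picked after their values were seen. Ncor1, the corepressor that holds Hdac3, had 1 count in transplanted cells, 0 in adult cells and 234 in 6 cultured cells. Bptf, the reader subunit of an imitation switch complex, had 0, 15 and 120 counts in transplanted, adult and cultured cells. Smyd1, a methyltransferase of striated muscle, had 41 counts in 3 transplanted cells, 3 counts in 2 adult cells and 227 counts in 4 cultured cells.

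The 4 genes higher in transplanted cells were each counted in 1 transplanted cell. Of the 4 higher in adult cells, Dpy30 was counted in 3 adult cells and the others in 1 each. The Polycomb subunits Eed and Rnf2 had 150 and 311 counts in 1 transplanted cell each, 0 in adult cells and 5 and 15 in cultured cells. Dpy30, a core subunit of the Kmt2 and Setd1 complexes, had 115 counts in 1 transplanted cell, 238 in 3 adult cells and 7 in 2 cultured cells. It was 2.60-fold higher in transplanted than in cultured cells (1.22 to 6.61; 16.5 without cultured A). Without transplanted C no transplanted count was left and it turned to at least 13.7-fold lower. In adult cells it was 5.51-fold higher (2.63 to 13.9; 2.39 without adult H, 34.9 without cultured A). Rbbp5, of the same core, had 144 counts in 1 adult cell and none in the other groups. Mbd3 of the NuRD complex had 193 counts in 1 transplanted cell, 47 in 1 adult cell and 0 in cultured cells, and Sap18, a corepressor subunit, had 0 in transplanted cells, 109 in 1 adult cell and 4 in cultured cells.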

How the data were processed

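Single cells were sorted or picked by hand, and their cDNA was amplified by template switching and 19 cycles of PCR and cut with Tn5, per the labels' protocols. The deposited values are raw counts per gene and cell. Per the submitters' processing notes, all cells, rat ones included, were handled with mm10, TopHat2 2.1.0, HTSeq and DESeq2. How the 9595 genes were chosen, the annotation and the strand setting are not stated, so reads of overlapping genes or close paralogs may be misplaced.

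Counts were summed over the 8 cells of a group named by the sample titles, and scaled to total counts (CPM). No molecular identifiers are stated. Ratios carry exact conditional binomial intervals, levels exact Poisson and shares Clopper-Pearson intervals (SciPy 1.17.1). The ratio intervals alone were tried on simulated data, with Poisson draws from the group sums at well counted genes. Such draws hold counting error only, so the trial does not cover the spread between cells. A call needed 2-fold and 10 counts over both groups. Exon lengths, the union of a gene's exons, and positions came from GENCODE M21 on mm10, with 68 members matched by symbol and 1 by an older one. TMM factors (edgeR 4.0.16) and size factors (DESeq2 1.42.0) were alternatives only, with no model fitted. Named members were the 4 highest per prefix, those with 10 counts in transplanted or adult cells, those 2-fold higher there than in cultured cells, and a list of well-known enzymes, 52 in all. The members and all gene lists were chosen with earlier results of these data known. The values of 1 member are not reported here and it is left out of the plots of single members, though it stays in the sums and counts.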

Additional observations from a re-analysis of the deposited data

Results flagged for a closer look

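Among 14 quantities of 8 cells examined, 2 cells stood apart from the rest of their group by Dixon's criterion for groups of this size. Chance flags about 1 in 20 such groups when values are normally distributed. Both flagged quantities hold cells at 0, so that rate need not apply and the chance of such flags here is not known. Transplanted cell G had 0.1967% of its counts on the members, against at most 0.0499% in the other transplanted cells. Of its 197 member counts 180 were Hdac2, and its cardiomyocyte marker share of 19.0% was the lowest of its group. Cultured cell B had 871.9 CPM of Setd2, with 53 counts, against 1, 3 and 6 counts in the cultured cells C, A and E and none in the others. Cell B was also the deepest cultured cell, at 60789 counts.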

How the results depend on the processing

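No paired analysis was possible because the letters A to H only name cells and each group is 1 sample.

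Scaling and weights moved few calls. With TMM factors, which shift all ratios over cultured cells by 0.92 on the log2 scale, the members' median log2 ratio was -6.14 for transplanted over cultured and -5.86 for adult over cultured cells. One member (1) was higher in adult than cultured cells with TMM factors, with DESeq2 size factors and with equal cell weights, against 0 in the main result. Equal cell weights gave shares of 0.0364% in transplanted and 0.630% in cultured cells and a median of -1.93 for transplanted over adult cells. Without Rn45s and Rpph1 in the total the cultured share was 0.852%.

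Medians depended on how low values were handled. For transplanted over cultured cells the median was -5.63 with no count minimum, -7.61 with 30 counts, -3.60 with a pseudocount of 10 CPM and -5.03 with zeros at the floor. For adult over cultured cells these were -5.31, -7.61, -3.35 and -4.79, and for transplanted over adult cells -1.36, -1.75, -1.02 and -1.76. With a minimum of 30 counts 21 members were lower in transplanted and 20 in adult than in cultured cells, and 5 lower in transplanted than in adult cells.

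Sets of cultured cells were left out as alternatives chosen after seeing the data. Without F, G and H the cultured share was 0.920%. Without B, C, D and E it was 0.443%, 12 members were lower in transplanted and 14 in adult cells, 1 was higher in adult cells, and the adult median was -5.44.

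Leaving out 1 cell at a time gave medians of -6.96 to -6.32 for transplanted over cultured, -6.67 to -6.12 for adult over cultured and -3.05 to -1.59 for transplanted over adult cells. Members higher numbered 0 to 1, 0 to 1 and 3 to 5 in those comparisons, and members lower 21 to 42, 25 to 43 and 6 to 9. Shares were 0.0106 to 0.0339% in transplanted, 0.0206 to 0.0291% in adult and 0.519 to 0.838% in cultured cells. Among ratios past 2-fold, those that turned were Hdac2 for transplanted over cultured (0.286 to 9.06), Brd7 (0.0376 to 1.29), Kdm5a (0.00625 to 1.03) and Setd1a (0.146 to 1.04) for adult over cultured, and Chd2 (0.0529 to 1.72) and Brd7 (0.144 to 3.12) for transplanted over adult cells. Within 2-fold, Setd3 and Hdac5 also turned for adult over cultured cells, to at least 1.54 without cultured G and to 1.71 without cultured C. In each of these the left-out cell held most of one group's counts of that member. Depth limited the cultured group most, where 1 count is 4.85 CPM.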
